A study of Homo sapiens with 5 samples.

Results

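The regions described here are the 335 stretches of the human genome in which a peak of Nrf2 and a peak of HIF1α were called both without and with inorganic arsenic (iAs). They were chosen from the deposited list of 21088 merged peak regions as those that overlapped, by at least 1 bp, an interval of each of the 4 ChIP-seq libraries. They made up 1.59% of all merged regions. The cells were BEAS-2B, an immortalized line of human bronchial epithelial cells, and all of them were starved of serum overnight. Control cells then received no iAs and treated cells received 1 μM iAs for 6 h, and chromatin was precipitated with an antibody against Nrf2 or against HIF1α. Each antibody and condition had 1 library, so no difference between control and iAs has a replicate check. Peak positions measure no expression, so the cell line could not be checked against marker genes. The lists carried no heights and the read depth is unknown, so presence, position, width and underlying sequence are what could be compared.

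Nrf2 (gene NFE2L2) is held in the cytoplasm and degraded through KEAP1 until oxidants or electrophiles, arsenic among them, modify KEAP1. It then pairs with small MAF proteins and binds antioxidant response elements (AREs) of genes for glutathione synthesis, the thioredoxin system and quinone reduction. HIF1α is marked for degradation by oxygen-dependent prolyl hydroxylases such as EGLN3. When stabilized, it pairs with ARNT and binds hypoxia response elements (HREs) of genes for glucose uptake, glycolysis and blood vessel growth. AP-1, a dimer of FOS and JUN proteins, binds a site that forms the core of one variant of the ARE.

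Short sequence elements recur in the comparisons below, and sites from named regions show what they look like in place. Each of these sites lies inside the stretch that intervals of all 4 libraries covered at once, with the element in capitals and 10 bases of flank on each side. The 9-base element TGACTCAGC joins an AP-1 site to the end of an ARE. It was present in the regions of 4 genes of glucose metabolism or hypoxia response (ADM, ALDOA, GAPDH, SLC16A3), of the AP-1 subunit FOSL1, of the tubulin TUBA1C and, in a pair, of the heme oxygenase HMOX1.
ADM: tctgggacagTGACTCAGCgcccacacgc
ALDOA: tggggcgccgTGACTCAGCcagaatgttg
GAPDH: caactacccaTGACTCAGCttctcccggc
SLC16A3: ccgcagccagTGACTCAGCactgagaact
FOSL1: acgccccgggTGACTCAGCcgccgtgact
TUBA1C: gggccacaggTGACTCAGCagcgagtcac
HMOX1, first: ctctagaccgTGACTCAGCgaaaacagac
HMOX1, second: accgggaccgTGACTCAGCgaaaacagat
On hg19 these lie at chr11:10329698-10329726 (plus strand) for ADM, chr16:30076786-30076814 (minus) for ALDOA, chr12:6644716-6644744 (minus) for GAPDH and chr17:80175689-80175717 (minus) for SLC16A3. FOSL1 has its site at chr11:65666847-65666875 (plus) and TUBA1C at chr12:49659424-49659452 (minus). The pair of HMOX1 lies at chr22:35768089-35768117 and chr22:35768060-35768088 (both minus).

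The 7-base AP-1 site TGACTCA, whose other strand reads TGAGTCA, is contained in the 9-base element but also occurs without it. It is shown from the regions of the glucose transporter SLC2A1, the autophagy receptor SQSTM1 and the thioredoxin reductase TXNRD1, where the longer element was absent from the common stretch.
SLC2A1: accagacgccTGAGTCAtttccctaca
SQSTM1: catgggacgcTGACTCActgccggcca
TXNRD1: ctgataagggTGAGTCAgatgccccaa
They are at chr1:43406829-43406855, chr5:179246099-179246125 and chr12:104613940-104613966, each read on the plus strand. The HRE core, ACGTG or GCGTG, is only 5 bases long and was searched on both strands. It is shown from regions with neither of the longer elements in the common stretch, which belong to the mitochondrial chaperone HSPA9, the complex IV subunit NDUFA4, the glycolytic enzyme ENO1, the oxygen sensor EGLN3, and NFE2L2 and KEAP1 themselves.
HSPA9: acctccaaccACGTGgggtgagggg
NDUFA4: attcctcagtACGTGgcacccttgg
ENO1: ctggggaagcACGTGggggcgcgcc
EGLN3: acaacctgggGCGTGgggacactgc
NFE2L2: ctcaccgcgcGCGTGgccttggctt
KEAP1: ccatcgctgcGCGTGggggaggcgc
Their positions are chr5:137911095-137911119 (plus), chr7:10980030-10980054 (minus), chr1:8939527-8939551 (minus), chr14:34529639-34529663 (minus), chr2:178128353-178128377 (minus) and chr19:10613425-10613449 (plus). Letters that match an element do not show which protein was bound there.

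The 4 libraries had 3204 intervals for Nrf2 in control cells, 7743 for Nrf2 with iAs, 6008 for HIF1α in control cells and 12826 for HIF1α with iAs. The 335 regions held 11.1%, 4.55%, 6.01% and 2.81% of these intervals in the same order. Of all merged regions, 14.7% had Nrf2 in control cells, 36.5% had Nrf2 with iAs, 28% had HIF1α in control cells and 60.5% had HIF1α with iAs. Regions with 3 of the 4 libraries numbered 1053. HIF1α with iAs was the one missing in 522 of them, Nrf2 in control cells in 376, HIF1α in control cells in 131 and Nrf2 with iAs in 24. The rule has no tolerance for gaps, and in 33 of the 1053 the missing library had an interval within 1 kb. Near misses had their closest start site at MARCKS (a gap of 67 bp to the nearest Nrf2 interval in control cells), SBF2 (79 bp, HIF1α with iAs), SARDH (108 bp, HIF1α in control cells) and SPTY2D1 (132 bp, Nrf2 with iAs). Just inside the rule were UROD, HAAO and RPS10-NUDT3, with 181, 182 and 185 bp of Nrf2 with iAs, and UQCRHL and LMNA, each with 188 bp of HIF1α with iAs. Every interval lay whole within its merged region, so these smallest overlaps are the widths of the narrowest intervals.

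A merged region can hold 4 peaks that only chain together. At least 1 bp was covered by all 4 libraries at once in 298 of the 335 regions, and in 37 there was no such base. Where it existed, the common stretch ranged from 10 to 835 bp with a median of 234 bp, while the whole regions ranged from 292 to 3853 bp with a median of 771 bp. Of the 15 longest common stretches, 13 lay within 1 kb of a start site. ZNF335, a zinc finger regulator of neural progenitors, had 835 bp in its first intron. HSPA9 had 799 bp, the kinase STK35 had 725 bp and FAM53C had 655 bp. DZANK1 (596 bp), the nucleotide sugar transporter SLC35B1 (556 bp), the mitochondrial phenylalanyl-tRNA synthetase FARS2 (543 bp), the transcription factor subunit TAF9 (531 bp), the splicing factor SART3 (522 bp), clathrin heavy chain CLTC (516 bp), NDUFA4 (505 bp) and the proteasome subunit PSMD1 (481 bp) followed. Away from start sites were the other two. One was 2428 bp downstream of the start of ADM, which encodes the vasodilator peptide adrenomedullin, with 545 bp. The other had its nearest start site at MYC, 117106 bp away, with 544 bp.

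**Figure D1:**
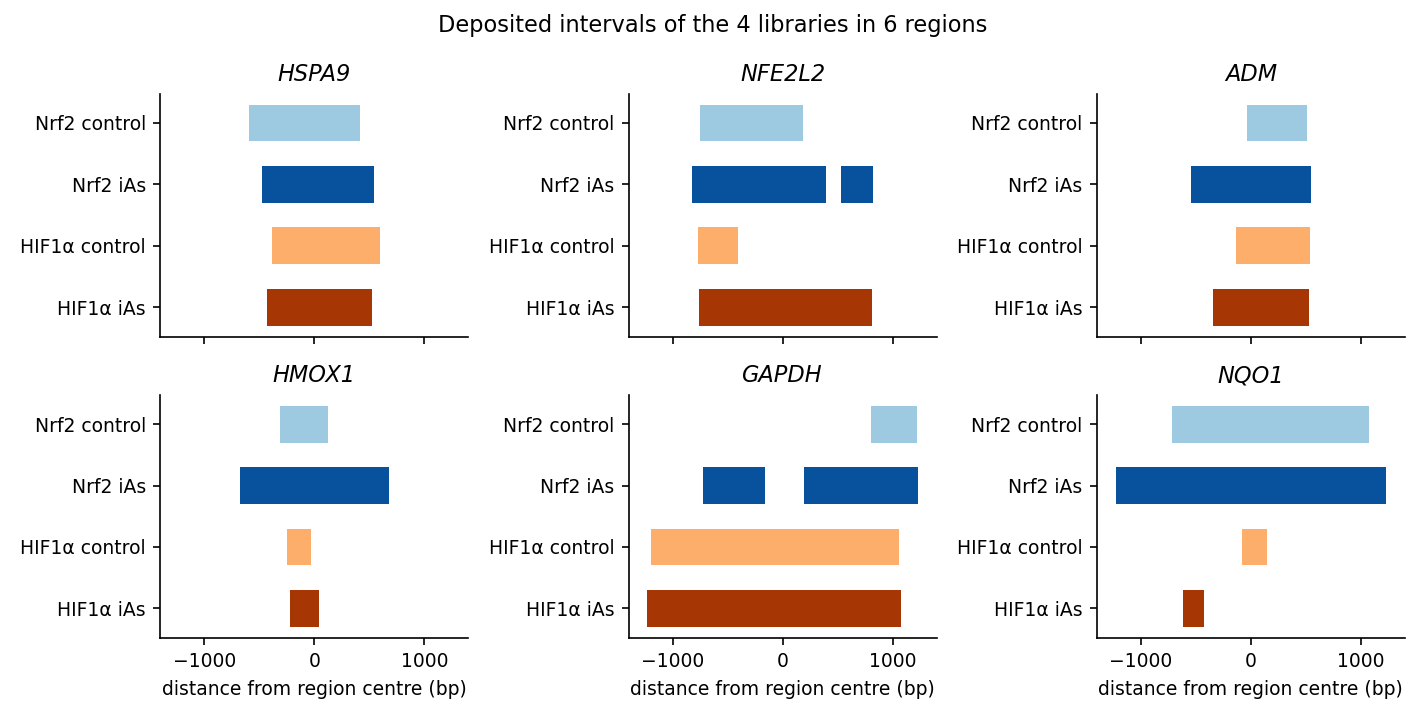
Intervals of the 4 libraries (bars, one row per library) in 6 regions named for their nearest gene, with the distance from the region centre in bp on the horizontal axis. The 4 intervals of HSPA9 are 956 to 1023 bp wide and nearly coincide, those of HIF1α at HMOX1 (223 and 260 bp) lie inside those of Nrf2, and at NQO1 the 2 HIF1α intervals do not overlap each other.

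The map of intervals shows that membership covers unlike arrangements. At HSPA9 the 4 intervals measured 1012 bp (Nrf2, control), 1023 bp (Nrf2, iAs), 976 bp (HIF1α, control) and 956 bp (HIF1α, iAs). At NFE2L2 the HIF1α interval of the control cells was 367 bp and that with iAs was 1571 bp, while Nrf2 covered 939 bp and 1518 bp. This region lies at the start of the Nrf2 gene itself, over intron 1 of its canonical transcript. At GAPDH, HIF1α covered 2258 bp in control and 2311 bp in iAs-treated cells, whereas Nrf2 covered 420 bp at one edge in control cells and 1603 bp in 2 intervals with iAs. At NQO1, the quinone reductase, Nrf2 covered 1787 bp and 2455 bp, and HIF1α had 2 short intervals of 224 bp in control and 196 bp in iAs-treated cells that shared no base.

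Genes of known pathways were looked up in lists chosen with earlier results of these data known, so their counts are a description. A gene was counted when a region with all 4 libraries lay in its body or within 10 kb of it. This held for 27 of the 187 listed genes (14.4%) and for 464 of all 20163 protein-coding genes (2.3%). With any merged region in place of the 335, it held for 172 of the 187 listed genes and for 61.4% of the protein-coding genes. Of 26 established Nrf2 targets, 10 had such a region. They were NQO1, HMOX1, ABCC1 (an exporter of glutathione conjugates), GCLC (the catalytic subunit of glutathione synthesis), TXN, TXNRD1, SRXN1, PRDX1 (the thioredoxin and peroxiredoxin system), OSGIN1 and SQSTM1. Of 13 genes for Nrf2, its partners and its regulators, 4 were counted, namely NFE2L2, KEAP1, its partner MAFK and SQSTM1. For HIF1, 3 of 26 targets were counted (EGLN3, ADM and the lactate exporter SLC16A3), and EGLN3 was also the 1 of 10 genes for HIF subunits and oxygen sensors. Glucose uptake, glycolysis and lactate had 6 of 23 genes, which were SLC2A1, GPI, ALDOA, GAPDH, ENO1 and SLC16A3. The AP-1 family had 2 of 12 (FOSL1 and ATF3), heat shock proteins 2 of 14 (HSPA1B and HSPA9) and genes of the cytoskeleton and focal adhesions 1 of 18 (TUBA1C). Of 2 abundant nuclear long non-coding RNA genes, NEAT1 had 2 such regions. None was counted among 7 genes of the pentose phosphate pathway, 13 of the hexosamine and serine pathways, 10 metallothionein and zinc response genes, 15 stemness and mesenchymal transition genes and 7 translation elongation factors. Some merged region lay near 7 of the 7, 13 of the 13, 3 of the 10, 14 of the 15 and 7 of the 7 genes of these lists, in the same order. The stemness and transition list was taken from genes that the study discusses.

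Of the 11 regions near the Nrf2 targets, 9 had both Nrf2 widths above both HIF1α widths, an order that 116 of all 335 regions (34.6%) had. At HMOX1, with the centre at -8852 bp from the start, Nrf2 covered 433 bp in control and 1353 bp in iAs-treated cells, and HIF1α covered 223 bp and 260 bp. The start region of GCLC had 583 bp and 1209 bp of Nrf2 and 311 bp and 251 bp of HIF1α. At TXN the widths were 691 bp and 1199 bp for Nrf2, and 243 bp and 283 bp for HIF1α. OSGIN1 had 471 bp and 1290 bp of Nrf2, against 216 bp and 278 bp of HIF1α. All 4 of these regions are among the 9. TXNRD1 had 2 regions. In the first, in intron 1 of the canonical transcript, Nrf2 covered 1808 bp and 2016 bp, and HIF1α covered 623 bp in 2 intervals in control cells and 203 bp with iAs. The second, in intron 3 and 96 bp from the start of a shorter transcript, had 2142 bp and 3356 bp of Nrf2, and 206 bp and 556 bp of HIF1α. PRDX1 (1124 bp and 1452 bp of Nrf2, 480 bp and 712 bp of HIF1α) and SRXN1 (431 bp and 912 bp, 200 bp and 363 bp) followed the same order of widths. SQSTM1 and ABCC1 were the targets where this order did not hold. SQSTM1 had 698 bp of HIF1α in control cells and, with iAs, 2118 bp in 3 intervals, while Nrf2 covered 1985 bp and 2926 bp. ABCC1, in intron 1, had 237 bp and 490 bp of Nrf2 beside 376 bp and 223 bp of HIF1α.

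The 4 regions near regulators of Nrf2 and the 2 near AP-1 genes each had more coverage of both factors with iAs than in control cells, as did 179 of all 335 (53.4%). The start of KEAP1 had 1189 bp and 1612 bp of Nrf2 and 674 bp and 1520 bp of HIF1α. In intron 1 of MAFK, Nrf2 covered 266 bp in control and 1041 bp in iAs-treated cells, and HIF1α covered 667 bp and 2070 bp. ATF3, a stress-induced partner of AP-1 proteins, had 222 bp and 804 bp of Nrf2 and 466 bp and 1315 bp of HIF1α. FOSL1 had 542 bp and 1746 bp of Nrf2, and 635 bp and 1516 bp of HIF1α. Each of these values is that of a single library.

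Among genes of glucose metabolism and hypoxia, ALDOA, the aldolase of glycolysis, had 700 bp and 1667 bp of Nrf2 and 660 bp and 1491 bp of HIF1α at its start, where the centre lies in a 5′-UTR. ENO1 had 798 bp and 2181 bp of Nrf2 and 950 bp and 1716 bp of HIF1α. ADM had 545 bp and 1094 bp of Nrf2 and 678 bp and 881 bp of HIF1α. At these 3 genes both factors had more coverage with iAs. The same held for 5 of the 6 regions near genes of glucose uptake, glycolysis and lactate. It held for all 3 near HIF1 targets, and for 179 of all 335 (53.4%). In intron 2 of SLC2A1, 17041 bp from the nearest start, Nrf2 covered 1454 bp and 1729 bp and HIF1α covered 373 bp and 387 bp. SLC16A3 had 908 bp and 992 bp of Nrf2, and 281 bp and 532 bp of HIF1α. GPI was covered at -5220 bp from its nearest start by 408 bp and 608 bp of Nrf2 and by 386 bp and 339 bp of HIF1α. The EGLN3 region lies inside the long extent that GENCODE gives this gene, but its centre is at -109247 bp from the nearest protein-coding start, with 202 bp and 620 bp of Nrf2 and 349 bp and 615 bp of HIF1α. The region near HSPA1B, an inducible heat shock protein, has its centre 7161 bp downstream of the start and lies more than 2 kb from the gene. It had 344 bp and 644 bp of Nrf2 and 256 bp and 457 bp of HIF1α, with no base common to all 4 libraries. TUBA1C had 418 bp and 805 bp of Nrf2 and 369 bp and 801 bp of HIF1α. Over the 29 regions near any listed gene, the median ratio of covered length, iAs to control, was 1.87 for Nrf2 and 1.48 for HIF1α, beside 1.40 and 1.21 over all 335.

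Where the 335 regions lie was not used to choose them and could be compared. A region was called near a start site when its centre was within 1 kb of the start of a protein-coding transcript. This held for 200 of 335 regions (59.7%, Wilson 95% confidence interval 54.4 to 64.8%). Among the 1948 regions that had Nrf2 in both conditions and no HIF1α, the share was 4.62%, and among the 2418 that had HIF1α in both conditions and no Nrf2 it was 86.5%. The difference to the first was 55.1 percentage points (Newcombe 95% confidence interval 49.7 to 60.3) and that to the second was -26.8 points (-32.3 to -21.5). Against all other 20753 merged regions (51.1%), which include both of these sets, the difference was 8.61 points (3.23 to 13.8). Among regions with 3 of the 4 libraries, the share was 61.7% without Nrf2 in control cells and 68.7% without HIF1α in control cells. It was 66.7% without Nrf2 with iAs (24 regions) and 6.13% without HIF1α with iAs. A share of about this size was thus not particular to regions with all 4 libraries. The confidence intervals cover the counting of regions only and not variation between cultures.

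By class, the centres of 166 regions (49.6%) lay in promoters, taken as up to 3 kb upstream of a start, 86 (25.7%) were distal intergenic, 61 (18.2%) were in introns, 16 (4.78%) in 5′-UTRs, 5 (1.49%) in exons and 1 in a 3′-UTR. Against all other regions, the promoter share was 18.1 points higher (12.8 to 23.5), the intron share was 11.5 points lower (difference -11.5, -15.3 to -6.99) and the exon share 5.5 points lower (-5.50, -6.43 to -3.52). The distal intergenic share differed by 1.43 points (-2.99 to 6.40), an interval that includes 0. HIF1α regions without Nrf2 had 13.1% of their centres in 5′-UTRs and 7.2% in exons, both more than the 335, with differences of -8.29 points (-10.6 to -5.17) and -5.70 points (-7.10 to -3.53). Within the 200 regions near a start, 127 had their centre upstream of it, and the median position was 47 bp upstream. The 135 regions away from starts had a median distance of 29784 bp, and 49 of them were more than 50 kb away.

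**Figure D2:**
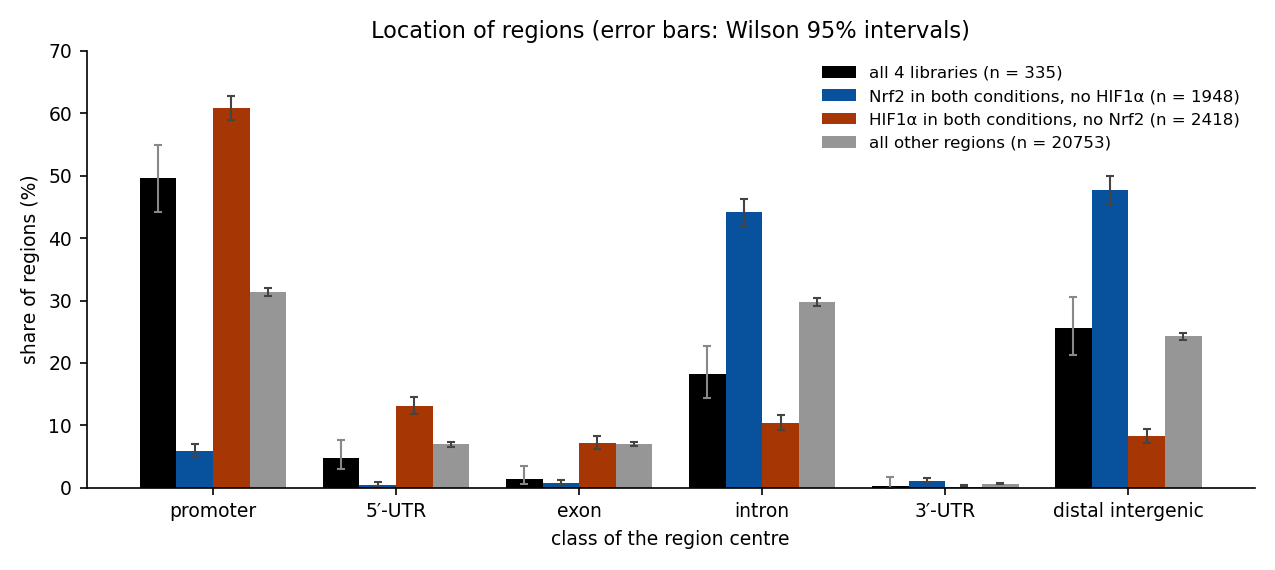
Share of regions (vertical axis, %) whose centre falls in each of 6 location classes, for the 335 regions with all 4 libraries and 3 comparison sets, with Wilson 95% confidence intervals as error bars. Regions with all 4 libraries stand at 49.6% in promoters, between HIF1α regions without Nrf2 (60.9%) and Nrf2 regions without HIF1α (5.90%).

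CpG-rich sequence, found at the starts of most widely used genes, followed the same order. A window from 100 bp before to 100 bp after the centre was called CpG-rich when its GC content was over 50% and its observed to expected CpG ratio over 0.6. The share was 50.4% (45.1 to 55.8%) of the 335, 2.16% of the Nrf2 regions without HIF1α and 90.5% of the HIF1α regions without Nrf2. Near start sites, 75.5% of the 335 were CpG-rich, and 90.3% of all other regions near start sites were, a difference of -14.8 points (-21.2 to -9.28). The median GC content was 60.7% over the 335, 43.8% over the Nrf2 regions and 68.2% over the HIF1α regions.

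The 7-base AP-1 site TGACTCA was present within 100 bp of the centre, on either strand, in 57 of the 335 regions (17.0%, 13.4 to 21.4%). The same windows moved by 5 kb held it in 4.48%, a difference of 12.5 points (7.95 to 17.3). The site was spread unequally between locations. Away from start sites, 46 of 135 regions (34.1%) held it, and near start sites 11 of 200 (5.5%), a difference of 28.6 points (20.1 to 37.2). In the near regions, the moved windows held it in 4.0%, and the interval of that difference (1.5 points, -2.91 to 6.02) includes 0. All other regions were split in the same direction, with the site in 30.9% away and 2.23% near. Against them, the share of the 335 differed by 3.22 points away (-4.29 to 11.6), an interval that includes 0. Near start sites the difference was 3.27 points (0.854 to 7.36). Nrf2 regions without HIF1α held the site more often than the 335 in both locations, in 47.6% away and 32.2% near, with differences of -13.5 points (-21.3 to -4.87) and -26.7 points (-37.2 to -17.1). HIF1α regions without Nrf2 held it in 6.13% away and 1.48% near, less often than the 335, with differences of 27.9 points (19.8 to 36.5) and 4.02 points (1.54 to 8.12). The 335 regions were wider than those of these sets (medians of 771 bp against 580 and 532 bp), and the part of this in the comparison was not tested. Centred on the common stretch instead, 21.5% of the 298 regions that have one held the site. With 250 bp on each side of the region centre the share was 30.4%, and over whole regions 39.4%.

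The 9-base element TGACTCAGC was present in 20 of the 335 (5.97%, with 0.896% in moved windows, and 12.2% with 250 bp on each side and 17.6% over whole regions), 13 of them away from start sites (9.63%) and 7 near (3.5%). Near start sites this was more often than in all other regions (0.604%), by 2.90 points (1.09 to 6.45), and away from them it was not distinguishable from the 11.3% of all other regions (difference -1.65 points, -5.62 to 4.53). Nrf2 regions without HIF1α held it more often than the 335, in 17.8% near and 24.4% away. The differences were -14.3 points (-23.6 to -6.85) and -14.8 points (-19.2 to -8.37). HIF1α regions without Nrf2 held it in 0% near and 0.613% away. The general ARE core TGACNNNGC, of which the 9-base element is a form, was held by the 335 in 18% near and 21.5% away. Near start sites this share was 7.70 points above that of all other regions (2.96 to 13.6). Away from them the difference was -3.34 points (-9.48 to 4.37), an interval that includes 0. Nrf2 regions without HIF1α held this core in 32.2% near and 42.1% away. The differences to them were -14.2 points (-25.5 to -3.66) and -20.6 points (-27.1 to -12.6).

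The HRE core ACGTG or GCGTG was present in 136 of the 335 (40.6%), and in 26.9% of the windows moved by 5 kb, a difference of 13.7 points (6.58 to 20.7). With 250 bp on each side it was present in 74.9%, and over whole regions in 86.6%. Its share was nearly the same near start sites (41%) and away from them (40%), with an interval of the difference from -11.5 to 9.70 points. Near start sites it was below that of all other regions (51.8%), by -10.8 points (-17.4 to -3.80). Away from start sites it was above that of all other regions (31.0%), by 8.99 points (1.06 to 17.5), above that of Nrf2 regions without HIF1α (18.3%) and below that of HIF1α regions without Nrf2 (59.8%). The core itself contains a CpG. Away from start sites, 13.3% of the 135, 0.915% of the Nrf2 regions without HIF1α and 63.8% of the HIF1α regions without Nrf2 were CpG-rich. The part of base composition in these differences, and in that to the moved windows, was not tested. Both the AP-1 site and the HRE core were present in 24 of the 335 windows, 19 of them away from start sites, and neither in 166 (49.6%).

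**Figure D3:**
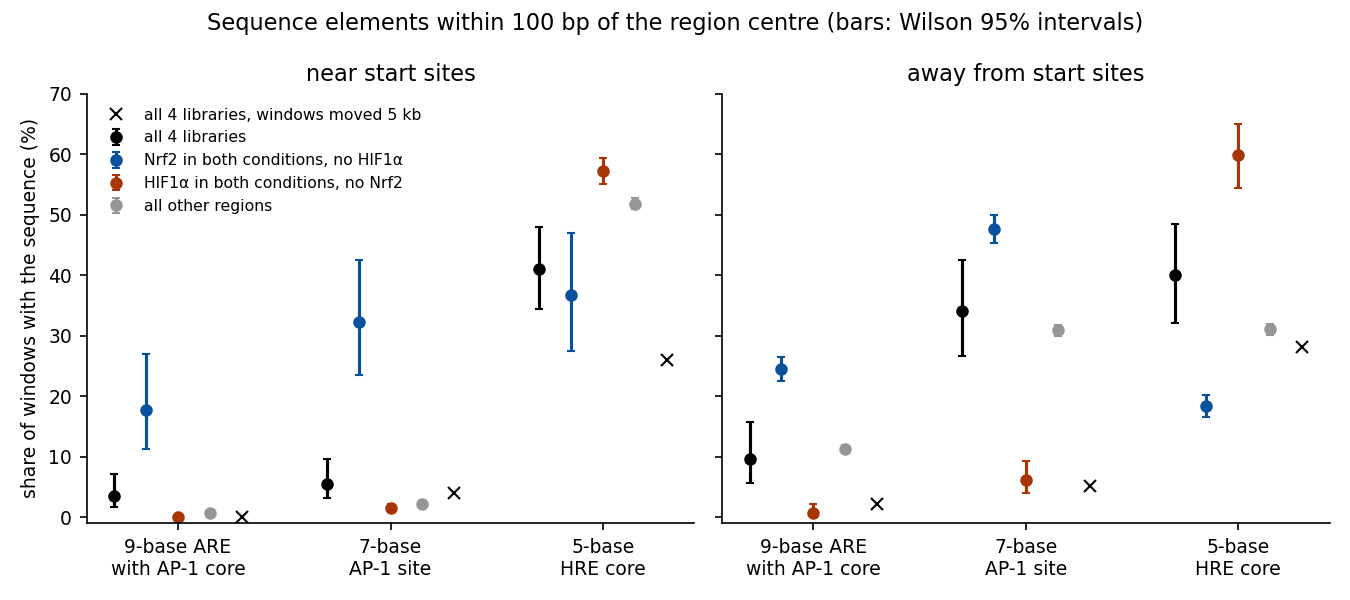
Share of windows (vertical axis, %) that hold the 9-base ARE with AP-1 core (TGACTCAGC), the 7-base AP-1 site (TGACTCA) or the 5-base HRE core (ACGTG or GCGTG), near (left) and away from (right) start sites. Points are sets of regions with Wilson 95% confidence intervals, and crosses are the windows of the 335 regions moved by 5 kb. Regions with all 4 libraries lie between the sets of either factor alone in the right panel, at 34.1% for the AP-1 site and 40% for the HRE core.

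Of the other fixed sequences, the YY1-like AAGATGGCG was present in 9 of the 200 near regions (4.5%) and in none of the 135 away, and the ETS-family core CCGGAAG in 22 near (11%) and 3 away. Among all other regions near start sites these 2 were held by 1.93% and 10.1%, and among HIF1α regions without Nrf2 near start sites by 4.68% and 16.4%. TACGTGCC, which contains the HRE core, was found in 2 and TGACGTCA in 4 of the 335, and in 0.308% and 0.848% of all other regions. No match says only that these letters are not in this window.

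Centred on the interval of each library in turn, the AP-1 site was held by 61 of the 135 regions away from start sites (45.2%) for Nrf2 in control cells and 47 (34.8%) for Nrf2 with iAs. For HIF1α it was 53 (39.3%) in control cells and 47 (34.8%) with iAs. The HRE core near start sites was held by 49% and 46.5% for Nrf2 and 54% and 48% for HIF1α. Away from start sites it was held by 36.3% and 34.1% for Nrf2 and 46.7% and 44.4% for HIF1α. The 9-base element was held away from start sites by 20%, 11.9%, 13.3% and 8.89%, in the order given for the AP-1 site. These shares come from the same regions with windows that can overlap, and each library is single, so their differences were not tested. The centres of the widest Nrf2 and HIF1α intervals were a median of 81.5 bp apart in control cells and 100.5 bp apart with iAs, and within 100 bp of each other in 190 and 167 of the 335 regions. The Nrf2 centres of control and iAs-treated cells were 57 bp apart in the median, and those of HIF1α 83.5 bp.

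The width of the intervals comes from the libraries that chose the regions, so it is described without a test for the 335 as a whole. The median covered length of Nrf2 was 418 bp in control cells (189 to 2873 bp) and 624 bp with iAs (181 to 3755 bp). That of HIF1α was 388 bp in control cells (190 to 2258 bp) and 482 bp with iAs (188 to 2434 bp). In other regions that had the library, the medians were 305, 326, 274 and 340 bp in the same order. Near start sites, the medians were 473.5 bp and 608 bp for Nrf2 and 393.5 bp and 638 bp for HIF1α. Away from them they were 360 bp and 644 bp for Nrf2, and 381 bp and 304 bp for HIF1α. The order of control and iAs was thus the same for Nrf2 in both locations and opposite for HIF1α.

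**Figure D4:**
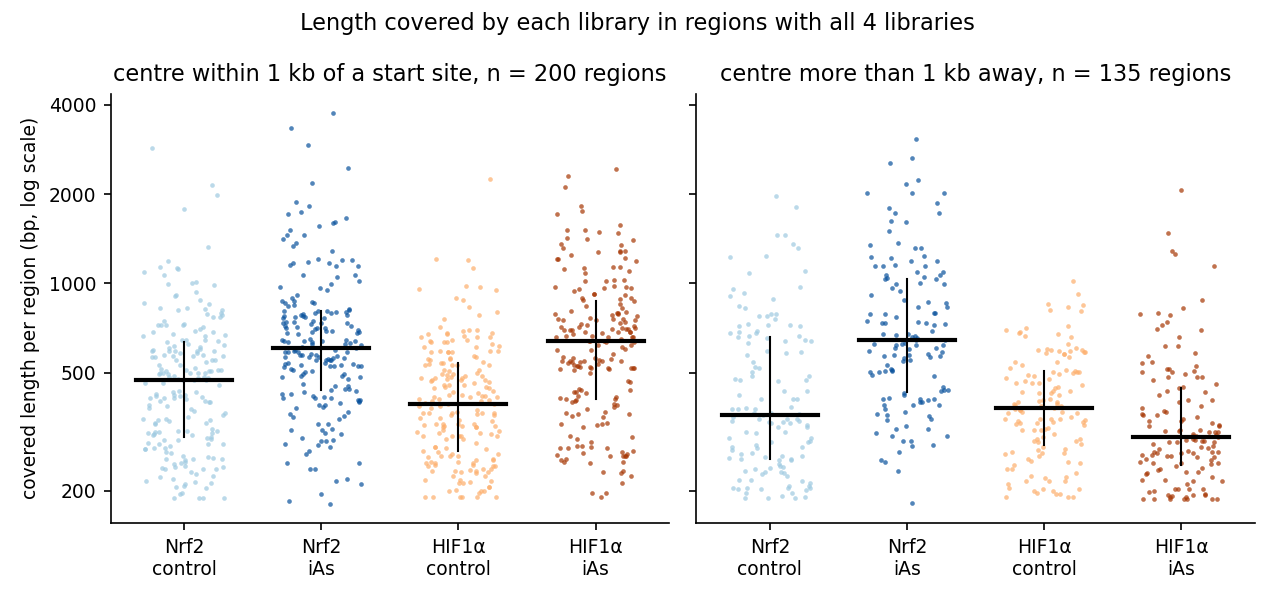
Length covered by each library in each of the 335 regions (points, bp on a log scale), near (left, 200 regions) and away from (right, 135 regions) start sites, with the median as a horizontal bar and the middle 50% as a vertical line. HIF1α with iAs has a median of 638 bp near start sites and 304 bp away from them.

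A factor was called wider with iAs when its covered length was at least 1.5 times that in control cells, and narrower in the reverse case. Nrf2 was wider in 142 of the 335 (42.4%), where 58.7% of all 2936 regions with Nrf2 in both conditions were. It was narrower in 1 (background 0.443%), which was near a start site (background 0.728%, and 0.396% away from start sites). HIF1α was wider in 122 (36.4%), where 47.4% of the 3153 regions with HIF1α in both conditions were, and narrower in 54 (16.1%, background 6.18%). These backgrounds include the 335. By location, Nrf2 was wider in 79 of 135 regions away from start sites (58.5%, background 61.6%) and 63 of 200 near (31.5%, background 41%), a difference of 27.0 points. HIF1α was wider in 23 away (17.0%, background 28.1%) and 99 near (49.5%, background 52%), a difference of -32.5 points. It was narrower in 41 away (30.4%, background 16.8%) and 13 near (6.5%, background 3.62%), a difference of 23.9 points. Each ratio compares 1 library with 1 library, and regions are not replicates of the treatment, so these differences are given without an interval. Regions with the factor in both conditions that are not among the 335 differed between the locations in the same directions, by 11.8 points for wider Nrf2, -21.1 for wider HIF1α and 9.59 for narrower HIF1α.

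Taking both factors together, 57 regions were wider for both, 40 of them near start sites. Nrf2 was wider while HIF1α was narrower in 29 regions, 26 of them away from start sites. The reverse could have held in 1 region at most, since Nrf2 was narrower in 1, and it did not. In 102 regions neither factor passed 1.5-fold. Taken alone, Nrf2 was wider in 79 and HIF1α narrower in 41 of the 135 regions away from start sites. Over all 335, Nrf2 was wider in 142, and HIF1α was wider in 122 and narrower in 54. Whether changes of both factors met more often than these separate counts give was not tested.

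**Figure D5:**
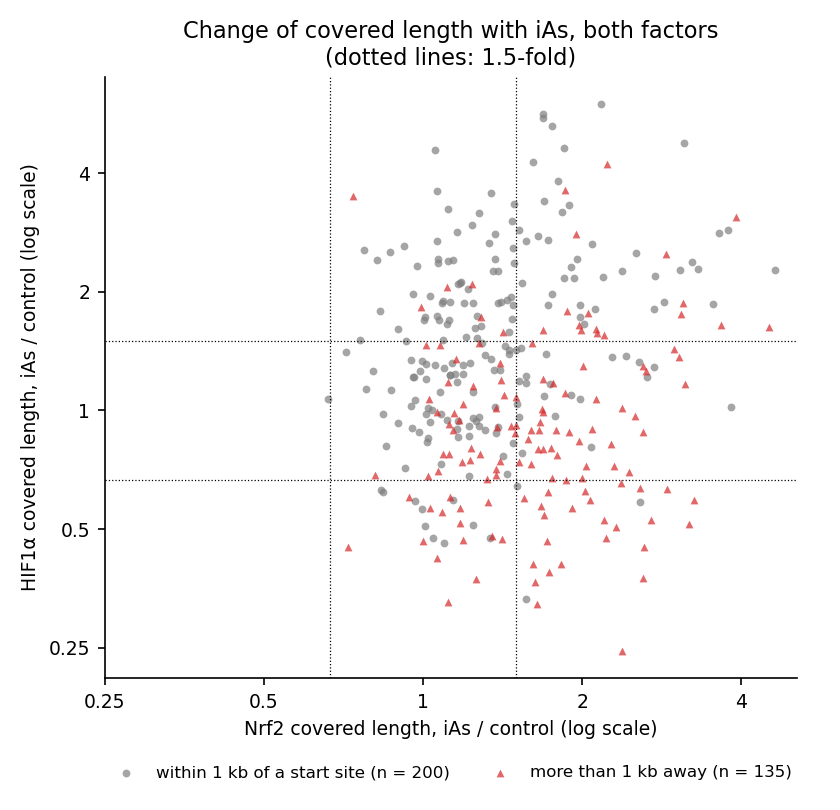
Ratio of covered length, iAs to control, of Nrf2 (horizontal) and HIF1α (vertical) in the 335 regions, on log scales, with dotted lines at 1.5-fold in each direction. Regions away from start sites (triangles) make up 26 of the 29 regions in the lower right field, where Nrf2 is wider and HIF1α narrower. Taken alone, Nrf2 is wider in 79 and HIF1α narrower in 41 of the 135 triangles.

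The largest ratio of Nrf2 was 4.62 at G3BP1, a stress granule protein (256 bp in control and 1183 bp in iAs-treated cells), followed by 4.51 upstream of WDR81 (255 and 1149 bp), 3.91 in MAFK and 3.82 at GAPDH. The smallest were 0.662 at ACOT8, a peroxisomal thioesterase (317 and 210 bp), 0.716 at BCKDHA, a subunit of branched-chain ketoacid dehydrogenase (772 and 553 bp), 0.721 in a region at -84088 bp from the start of RALY, and 0.737 at -18238 bp from that of HAAO. HIF1α had its largest ratio, 5.99, at EWSR1, an RNA-binding protein (236 and 1414 bp), followed by 5.66 at MFSD11 (214 and 1211 bp), 5.52 at QRICH1 (231 and 1275 bp) and 5.27 at COQ8A, a kinase-like protein of coenzyme Q synthesis (244 and 1285 bp). All 4 of these lie at start sites. The regions of G3BP1, WDR81, MFSD11, QRICH1 and COQ8A had no base common to all 4 libraries, so their 4 intervals do not all lie on the same sequence. With only the widest interval of each library in place of the summed length, the order of these ratios was another, with a HIF1α ratio of 3.57 at MFSD11 and 5.05 in MAFK (3.10 by summed length), and an Nrf2 ratio of 2.48 at GAPDH and 3.79 in the farther ZMYND8 region (2.38 by summed length). The smallest HIF1α ratios were 0.245 and 0.332 in a pair of neighbouring regions upstream of ZMYND8, a chromatin reader (1019 and 250 bp, and 594 and 197 bp), 0.323 upstream of CP, which encodes ceruloplasmin (589 and 190 bp), and 0.326 in intron 1 of TXNRD1. In all 4 of these, Nrf2 covered more with iAs than in control cells.

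Some of the 335 regions lie side by side. In 8 cases a pair was less than 20 kb apart, with the nearest start sites at SEC22B, ZBTB7B, LPIN1, DNAH5, PLEC, FRMD8, WDR81 and ZMYND8. The gaps were 108 bp at LPIN1, 374 bp at WDR81 and 700 bp at ZMYND8, and 15539 bp at ZBTB7B. The pair at FRMD8 is the one near NEAT1, the RNA scaffold of paraspeckles, with 1460 bp and 1796 bp of Nrf2 in the wider region and 380 bp and 504 bp in the other, where HIF1α covered 338 bp and 198 bp. By chromosome, regions with all 4 libraries made up 3.63% of the merged regions of chromosome 20 (28 of 771, 2.52 to 5.20%) and 0.405% of those of chromosome 4 (2 of 494, 0.111 to 1.46%), the highest and the lowest shares among chromosomes 1 to 22 and X.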

How the data were processed

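Nrf2 and HIF1α ChIP-seq was done in BEAS-2B cells, with 1 library per antibody and condition. The input library has no rows in the table used. According to the submitters' processing notes, reads were aligned with BWA to hg19 and peaks were called with MACS2 2.1.0. The study's methods name down-sampling of tags within a group and MACS or SICER, and which caller made each list is not given in the sources used here. The labels name antibodies of Santa Cruz (Nrf2) and Abcam (HIF1α), the methods those of Active Motif. The authors deposited intervals as base positions, with no heights or scores, and a merged list. Read depth is unknown. Down-sampling and the caller's threshold set how many intervals a library has and how wide they are.

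Starts were converted to 1-based. A merged region was taken when it overlapped an interval of each library by at least 1 bp, and bedtools 2.31.1 gave the same 335 regions. The members, gene lists and tests were chosen with earlier results of these data known. The annotation was GENCODE release 44 mapped to GRCh37 (hg19), of which 20163 protein-coding genes and 63781 transcripts of the basic set were used. Short sequences were sought on either strand from 100 bp before to 100 bp after the centre of a region. A further 10 short sequences of other common promoter elements were counted after the data were seen, and their shares are not reported. Width was the summed covered length of a library in a region. Shares carry Wilson and differences Newcombe 95% confidence intervals, which cover counting of regions only. Differences in width carry none, although one was planned between locations, because the widths come from the libraries of the rule. The named regions were the 15 longest common stretches, regions within 10 kb of a listed gene, the 4 highest and 4 lowest ratios per factor, the 5 just inside and the 5 just outside the rule, of which some are not reported here. Opposite ratios of 2-fold, neighbouring pairs, chromosome shares, gene families and start sites on both strands were looked up after values were seen. Alternatives were other overlaps, windows, centres, distances and folds, and regions with a common stretch, the last added after seeing the data. Overlap and sequence steps were tested on simulated data, and location steps on points placed upstream of annotated starts. The check of the distance to a start accepted any value up to the planted distance, so it could not fail. Computation used Python 3.11.15, NumPy 2.4.6, SciPy 1.17.1, pysam 0.24.0 and, for the plots, matplotlib 3.10.9.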

Additional observations from a re-analysis of the deposited data

Results flagged for a closer look

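Between regions near and away from start sites, the share in which Nrf2 was at least 1.5 times wider with iAs differed by 27 percentage points (58.5% away, 31.5% near). For HIF1α the difference had the opposite sign, -32.5 points for wider (17.0% away, 49.5% near) and 23.9 points for narrower (30.4% away, 6.5% near). The widths come from the libraries that chose the regions, with 1 library per condition, so these differences are descriptions. In 4 regions the factors moved in opposite directions by at least 2-fold each, and this difference was not tested because each value is a single library. The region 7333 bp downstream of the start of CSRP1, a LIM domain protein, had 257 bp and 670 bp of Nrf2 in control and iAs-treated cells (ratio 2.61) and 580 bp and 218 bp of HIF1α (ratio 0.376). The region with USP40 as the nearest start had ratios of 2.62 for Nrf2 and 0.451 for HIF1α. With only the widest interval of each library in place of the summed length, its HIF1α ratio was 0.787, short of 1.5-fold. The second region upstream of ZMYND8 had 519 bp and 1235 bp of Nrf2 and 1019 bp and 250 bp of HIF1α (ratios 2.38 and 0.245). The region at -48097 bp from the start of SHISAL1 had ratios of 2.22 and 0.475. All 4 have their centre more than 1 kb from a start site.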

How the results depend on the processing

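No paired analysis was possible because each antibody and condition had 1 library. Of 354 values recomputed under other settings, 299 were judged the same. For a difference, this meant that both intervals excluded 0 with the same sign, or that both included 0, whatever the sign. A share had to stay within its interval, a count within 1.5-fold, and a ratio on its side of the 1.5-fold thresholds. Of the 299, 50 come from asking for an overlap of at least 100 bp. This could change nothing because the narrowest interval in the regions is 181 bp. Keeping only the intervals above about the median width of their list left 113 regions. With a 2-fold threshold, Nrf2 was wider in 19.7% and narrower in 0%, and HIF1α wider in 20.6% and narrower in 6.57%, and the away minus near difference for wider Nrf2 was 16.6 points. For differences to all other regions, TGACTCAGC moved from 0.144 points to 9.54 with the whole region, 4.30 with 250 bp on each side and 2.90 near start sites, and TGACTCA from 0.786 to 17.2, 7.43 and 3.27, all with intervals above 0. The HRE core turned from -1.03 points to 27.2 (whole region), 7.68 (250 bp), 6.79 (common stretch) and 8.99 (away), and was -10.8 near. Against Nrf2 regions without HIF1α it was 4.33 near, and against HIF1α regions without Nrf2 -0.0333 with the whole region, both with intervals that include 0. The CpG-rich difference to all other regions was -5.37 points and, with the whole region, 2.78 (-2.59 to 7.94). That of AAGATGGCG was 1.63 points and, away from start sites, where 0 of 135 regions held it, -0.148 (-0.244 to 2.62). The intervals of 2.78 and -0.148 include 0. With whole regions the searched length is the region's own width. Regions with all 4 libraries had a median of 771 bp, Nrf2 regions without HIF1α 580 bp and HIF1α regions without Nrf2 532 bp. The median width of all other regions together is not given here. In them, the median length covered by a library was 274 bp (HIF1α in control cells) to 340 bp (HIF1α with iAs). The cause of the changes was not tested. Without counts, read depth limits every absence of an interval.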

Other observations

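Gene families at start sites were counted after the list of regions had been seen, so these counts are descriptions. Of 20136 protein-coding gene symbols, 245 (1.22%) had a start within 1 kb of the centre of a region with all 4 libraries. Among 39 proteasome subunit genes, 5 did (PSMA1, PSMD1, PSMD7, PSMD12 and PSMD14), and among 75 genes of cytosolic ribosomal proteins, 8 did (RPL7, RPL21, RPL27, RPL35A, RPS10, RPS12, RPS23 and RPS27A). Start sites on both strands lay within 1 kb of the centre in 40 of the 200 near regions (20%). This was more than in all other near regions (10.9%), by 9.14 points (4.14 to 15.2), and the interval of the difference to HIF1α regions without Nrf2 (15.3%) includes 0, at 4.66 points (-0.553 to 10.9).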
